A study of Homo sapiens with 6 samples.

Results

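The genes described are the interleukin-6 family cytokines IL6, IL11, LIF and CLCF1, the related-acting cytokine IL24, and the receptor chains IL6ST, IL6R, LIFR, OSMR and IL11RA. Every probe set that the platform's annotation ties to exactly 1 of these 10 symbols was taken. This gave 25 of 54613 probe sets and 9 of 19775 genes. No probe set carried the symbol CLCF1, so this cytokine was not analysed here.

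The samples were 6 Affymetrix arrays of MDA-MB-231 cells, a mesenchymal human line established from breast cancer. Per the labels, the cells of 3 arrays carried a control vector and those of the other 3 had been transfected with a plasmid for expressing HS3ST2, a heparan sulfate 3-O-sulfotransferase. The labels name no other allele, agent or time point, and do not say whether the cells were selected, cloned or pooled, and call the replicates independent without saying whether each was its own transfection. The p-values thus cover array-to-array spread, which may be technical.

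Most interleukin-6 family cytokines signal through receptor complexes that share IL6ST, the chain known as gp130. IL6 and IL11 bind IL6R and IL11RA, which give the complex its ligand specificity. LIF uses LIFR together with IL6ST, and oncostatin M uses LIFR or OSMR together with IL6ST. The receptors carry Janus kinases that phosphorylate STAT3, and SOCS3 is a STAT3-induced inhibitor that closes the loop. IL24 belongs to the interleukin-10 family and binds receptors built from IL20RA, IL20RB and IL22RA1, which also act through STAT3. In breast cancer cells IL6 and IL11 are known as secreted factors linked to inflammation and bone metastasis.

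The deposited values are logarithms whose base the sources do not name, read here as log2, and are centred so that the median over the 6 arrays is 0 for each probe set. A value says how far an array lies from that median, so that nothing can be said of a gene's level. The centring also makes the innermost values of 2 groups that do not overlap mirror images around 0. A gene is the mean of its probe sets. Each difference is the HS3ST2-labelled mean less the control mean, given with limma's standard error (n = 3 per group), and a gene was called at a limma Benjamini-Hochberg adjusted p under 0.05 over all genes tested.

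HS3ST2 itself was not called, with 1 probe set at -0.22, 0.17 and -0.11 in control arrays and 0.16, 0.04 and -0.04 in HS3ST2-labelled arrays (difference 0.11 ± 0.10, limma adjusted p 0.523). The labels do not say whether that probe set can detect the plasmid's transcript, so every direction rests on the labels. Probe sets for 18S and 28S ribosomal RNA, which the arrays carry as controls, moved with the groups. Their median was -0.20, -0.06 and -0.29 in control arrays and 0.02, 0.16 and 0.74 in HS3ST2-labelled arrays, highest in HS3ST2-labelled replicate 3. Without that array the other 7 called members kept their calls and IL6ST did not (0.24, limma adjusted p 0.115). Of marker genes of other cells, 0 of 9 leukocyte and 0 of 10 fibroblast genes were called, and the list medians per array ran from -0.07 to 0.04 in control and -0.03 to 0.06 in HS3ST2-labelled arrays for leukocytes, and from -0.02 to 0.04 and 0.00 to 0.02 for fibroblasts. Of 6 endothelial genes, KDR (-0.82 ± 0.12) and CLDN5 (-0.30 ± 0.08) were lower and VWF was higher (0.27 ± 0.08), with list medians of 0.04 to 0.11 in control and -0.13 to 0.02 in HS3ST2-labelled arrays. Of the markers fixed for this cell line, CD44 (-0.59 ± 0.05), VIM (-0.20 ± 0.06) and MSN (-0.18 ± 0.05) were lower and CAV1, AXL and SPARC were not called. The calls of VIM, MSN, CLDN5 and VWF were lost with 1 array left out in most cases or, for CLDN5, in 3 of 6. Of 5 luminal genes CDH1 was higher (0.42 ± 0.09). Centring hides whether any marker is present or absent, and the part of these shifts in the members' differences was not tested.

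Most of the ligands fell and most of the receptor chains rose. Of 4 measured cytokines, IL24, IL6 and IL11 fell and LIF was not called. Of 5 receptor chains, LIFR, IL11RA, OSMR and IL6ST rose and IL6R fell. In all, 8 of 9 member genes were called, 4 lower and 4 higher, where 24.5% of all genes tested were called, 13% lower and 11.5% higher. The groups did not overlap for the same 8 genes, 4 lower and 4 higher, against 40.4% of all genes, 20.9% lower and 19.5% higher. Counted as probe sets, 16 of 25 were called against 16.9% of all, 5 lower against 8.98% and 11 higher against 7.9%. The groups did not overlap in 18 of 25 probe sets against 34.1% of all, 6 lower against 17.4% and 12 higher against 16.6%. The members, like the lists below, were chosen with earlier results of these data known, so these shares cannot test the set.

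**Figure D1:**
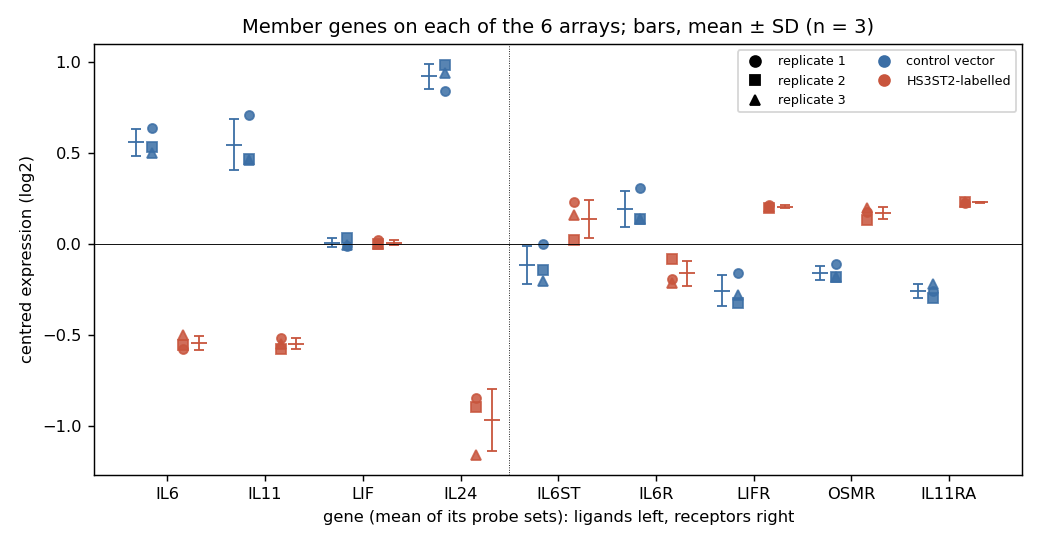
Centred expression (log2) of the 9 measured member genes on each array, with control vector arrays in blue, HS3ST2-labelled arrays in red, a marker shape per replicate and bars for the mean ± SD (n = 3). IL6, IL11 and IL24 sit above 0 in every control array and below 0 in every HS3ST2-labelled array, LIFR, OSMR and IL11RA do the reverse, and LIF stays within 0.04 of 0.

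The starts of the 3 cytokine genes that fell are shown because they carry the largest differences. Each sequence is the 250 bases before the annotated start, 5′ to 3′ on the gene's strand, from RefSeq (GRCh38.p14). The array files name no genome build, so these positions are RefSeq's own. Capitals mark every match, on either strand, to TGANTCA (AP-1), GGGA, any base and then TTTCC (NF-kB), TTCNNNGAA (STAT), TGACGTCA (CRE), TTGCNNAA (C/EBP) or TATANA (TATA).
IL6, chr7:22726950-22727199, plus strand: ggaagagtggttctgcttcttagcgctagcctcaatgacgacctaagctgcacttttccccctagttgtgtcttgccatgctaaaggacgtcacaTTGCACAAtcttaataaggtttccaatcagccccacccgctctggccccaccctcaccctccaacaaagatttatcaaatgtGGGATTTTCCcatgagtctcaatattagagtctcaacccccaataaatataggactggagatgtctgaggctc
IL11, chr19:55370464-55370713, minus strand: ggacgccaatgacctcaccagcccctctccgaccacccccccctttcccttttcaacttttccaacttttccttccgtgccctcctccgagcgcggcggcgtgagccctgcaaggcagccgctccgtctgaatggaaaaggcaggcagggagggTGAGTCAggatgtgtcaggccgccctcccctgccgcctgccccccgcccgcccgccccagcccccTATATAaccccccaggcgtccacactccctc
IL24, chr1:206897193-206897442, plus strand: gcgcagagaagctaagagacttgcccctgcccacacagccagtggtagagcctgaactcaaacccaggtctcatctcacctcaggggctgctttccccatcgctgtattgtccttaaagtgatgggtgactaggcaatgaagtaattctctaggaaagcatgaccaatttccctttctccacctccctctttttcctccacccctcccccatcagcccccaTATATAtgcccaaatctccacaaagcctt
The IL6 window held an NF-kB match, GGGATTTTCC, 73 bases before the start and a C/EBP match, TTGCACAA, 155 bases before it. The IL11 window held an AP-1 match, TGAGTCA, 96 bases before the start and a TATA match 31 bases before it. The IL24 window held a TATA match 29 bases before the start and none of the other letters. No motif was thus common to all 3 windows, and none of the matches overlapped another there.

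Over 34943 RefSeq windows of this length, NF-kB letters occurred in 0.527%, AP-1 letters in 6.59%, C/EBP letters in 9.06%, STAT letters in 6.56%, CRE letters in 1.63% and TATA letters in 17.7%. The table held 11 windows for 8 of the members. Among the receptors, STAT letters stood in 2 of the 3 windows of LIFR, each with TATA letters and 1 with a C/EBP match 31 bases before its start. The OSMR window held a C/EBP match 73 bases before its start. The windows of IL6ST, IL6R and IL11RA held no match to these letters. A match describes the letters only.

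IL24, a cytokine studied for its growth-suppressing action on tumour cells, had the largest difference of any member. Its single probe set was at 0.84, 0.98 and 0.94 in control arrays and at -0.84, -0.90 and -1.16 in HS3ST2-labelled arrays. The groups lay 1.69 apart at their nearest points, and HS3ST2-labelled replicate 3 was the lowest array. IL24 fell by 1.89 ± 0.09 log2 (SE, 95% interval -2.10 to -1.69), a 3.71-fold difference with a limma adjusted p of 1.17e-05. It was the fifth-lowest difference of all genes tested.

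IL6, the founding cytokine of the family, was measured by 1 probe set. Its values were 0.64, 0.54 and 0.50 in control arrays and -0.57, -0.55 and -0.50 in HS3ST2-labelled arrays. Both groups were tight, with an SD of 0.073 and 0.038, and they did not overlap. IL6 fell by 1.10 ± 0.06 log2 (95% interval -1.24 to -0.97), a 2.15-fold difference with a limma adjusted p of 1.79e-05.

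IL11, a cytokine of stroma and bone, fell by 1.10 ± 0.08 log2, a 2.14-fold difference with a limma adjusted p of 5.44e-05. Its probe sets moved the same way by different amounts. Probe set 206924_at was at 0.95, 0.60 and 0.61 in control arrays and -0.60, -0.77 and -0.78 in HS3ST2-labelled arrays (-1.44 ± 0.11). Probe set 206926_s_at was at 0.47, 0.33 and 0.32 against -0.43, -0.38 and -0.32 (-0.75 ± 0.07). Control replicate 1 was the highest array in both, and neither probe set's groups overlapped. The 95% intervals of the probe sets, -1.69 to -1.18 and -0.92 to -0.59, did not meet.

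LIF, which maintains stem cells and signals through LIFR, was nearly flat across the arrays. Its single probe set was at -0.01, 0.03 and 0.00 in control arrays and 0.02, 0.00 and 0.00 in HS3ST2-labelled arrays. The difference was 0.00 ± 0.05 (95% interval -0.11 to 0.11, limma adjusted p 0.999). The range over all 6 arrays was 0.0438 log2, and only 0.0769% of probe sets had a smaller range. Since levels were removed, it is not known whether this probe set lies near background.

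IL11RA, the chain that binds IL11, rose by 0.49 ± 0.05 log2 (1.40-fold, limma adjusted p 3.40e-04) while its ligand fell. As a mean of 2 probe sets it was at -0.26, -0.30 and -0.22 in control arrays and 0.23, 0.23 and 0.23 in HS3ST2-labelled arrays. In that mean the HS3ST2-labelled arrays had an SD of 0.0032, against 0.067 in 204773_at and 0.064 in 1552646_at. Probe set 204773_at gave 0.66 ± 0.08 and 1552646_at gave 0.32 ± 0.08, and both were called. Dropping 1 array ended the call of 1552646_at in 5 of 6 cases (0.26 to 0.35, the exception being control replicate 1) and never that of 204773_at.

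LIFR, the receptor of LIF and a partner of IL6ST, rose by 0.46 ± 0.06 log2 (1.38-fold, limma adjusted p 9.64e-04). Its mean was -0.16, -0.33 and -0.28 in control arrays and 0.22, 0.20 and 0.20 in HS3ST2-labelled arrays. All 5 probe sets were higher with no overlap of the groups, and 4 were called, at 0.42 to 0.64. The call of 205876_at was lost without HS3ST2-labelled replicate 1 or 2 or control replicate 2 or 3 (0.46 to 0.51), and the other 3 kept theirs whichever array was dropped. The remaining probe set, 229185_at, gave 0.12 ± 0.07 with a limma adjusted p of 0.298.

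OSMR, the oncostatin M receptor, rose by 0.33 ± 0.05 log2 (1.26-fold, limma adjusted p 0.00271). It was at -0.11, -0.18 and -0.18 in control arrays and 0.18, 0.13 and 0.20 in HS3ST2-labelled arrays. Its 3 probe sets were all called, at 0.27, 0.34 and 0.38, with no overlap of the groups in any of them. Only 226621_at kept its call whichever array was dropped (0.36 to 0.42). That of 1554008_at was lost without HS3ST2-labelled replicate 2 or 3 or control replicate 2 or 3 (0.25 to 0.27), and that of 205729_at without HS3ST2-labelled replicate 1 or 3 or control replicate 2 or 3 (0.30 to 0.33).

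IL6ST, the chain shared by most of the family, passed narrowly (0.25 ± 0.08 log2, 1.19-fold, limma adjusted p 0.0458). Its mean over 7 probe sets was 0.00, -0.14 and -0.20 in control arrays and 0.23, 0.02 and 0.16 in HS3ST2-labelled arrays, so the groups were only 0.026 apart. Probe set 212195_at was at -0.25, -0.17 and -0.20 against 0.21, 0.30 and 0.17 (0.43 ± 0.07), and 212196_at at -0.15, -0.25 and -0.12 against 0.19, 0.12 and 0.13 (0.32 ± 0.07). Those probe sets were called and their groups did not overlap, although 212196_at lost its call without HS3ST2-labelled replicate 1 (0.29) or control replicate 2 (0.28). The other 5 were higher by 0.09 to 0.29, overlapped between the groups and were not called. The call of IL6ST was lost without HS3ST2-labelled replicate 1 (0.21), HS3ST2-labelled replicate 3 (0.24), control replicate 2 (0.24) or control replicate 3 (0.21). It was lost too when 204863_s_at, which varies most, stood for the gene (0.29, limma adjusted p 0.185). It was kept when probe sets of the types ending in _x_at or _s_at were dropped (0.33, limma adjusted p 0.00706).

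IL6R, the chain that binds IL6, was the only receptor chain of the 5 to fall (-0.36 ± 0.07 log2, 1.28-fold, limma adjusted p 0.0068). Its mean was 0.31, 0.14 and 0.14 in control arrays and -0.19, -0.08 and -0.21 in HS3ST2-labelled arrays. The 3 probe sets differed widely. Probe set 226333_at was at 0.56, 0.37 and 0.34 against -0.35, -0.34 and -0.42 and was called (-0.79 ± 0.08). Probe set 205945_at gave -0.28 ± 0.09, with no overlap of the groups but a limma adjusted p of 0.0611, and 217489_s_at gave 0.01 ± 0.09. The gene's difference was -0.54 without the probe set ending in _s_at and -0.79 from 226333_at alone.

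**Figure D2:**
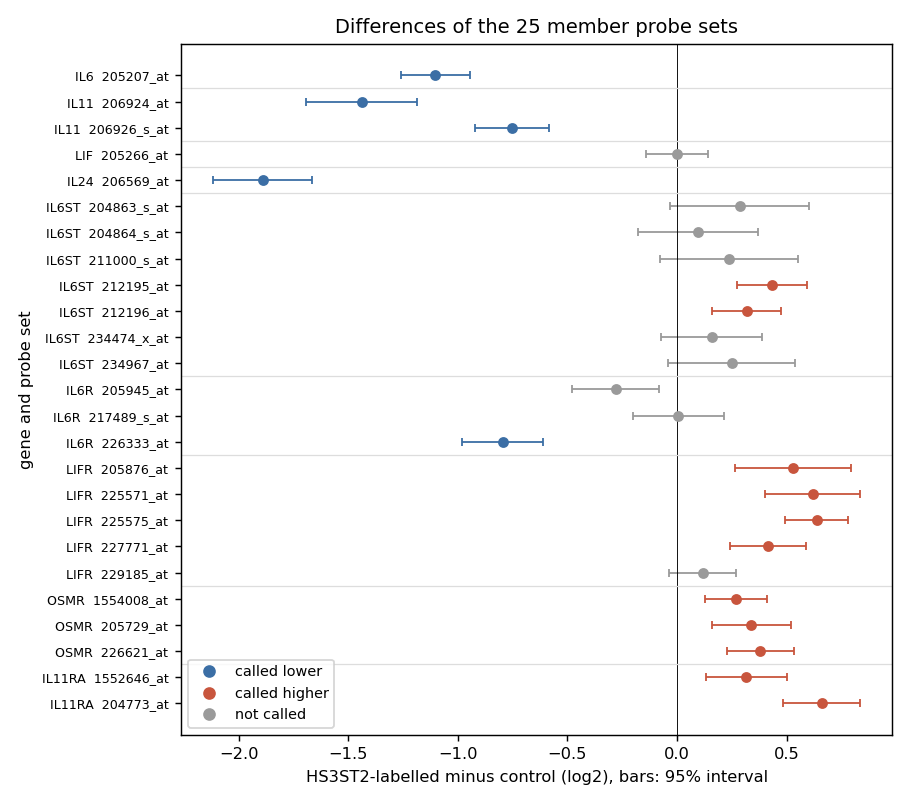
Difference between HS3ST2-labelled and control arrays (log2) for each of the 25 member probe sets, with 95% intervals from limma; blue marks probe sets called lower, red those called higher and grey those not called. The IL24, IL11 and IL6 probe sets and 1 of IL6R lie left of -0.7, and 4 of 5 for LIFR and all for OSMR and IL11RA are red. Those of IL6ST all lie right of 0 with 2 of 7 called, and those of IL6R run from -0.79 to 0.01.

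The remaining cytokines of both families gave no call. Among 5 measured ligands that also act through IL6ST (OSM, CNTF, CTF1, IL27 and EBI3), 0 were called, with a median difference of 0.08. EBI3, a subunit shared by interleukins of the family, was nearest at 0.27 ± 0.08 (limma adjusted p 0.0505). Among 5 cytokines of the interleukin-10 family (IL10, IL19, IL20, IL22 and IL26), 0 were called, with a median of 0.03, although IL26 passed without control replicate 1 (0.35 ± 0.08, limma adjusted p 0.0266). EBI3 passed without control replicate 1 or HS3ST2-labelled replicate 1. Over all genes tested the median difference was 0.01, with 11.5% called higher and 13% lower. These shares are the background for the count of each list below where every array was used. For counts with 1 array left out, the background was 2025 to 2162 genes lower and 1729 to 1899 higher, of 19775.

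The chains that bind IL24 did not move together. IL22RA1 was at -0.27, -0.17 and -0.09 in control arrays and 0.09, 0.22 and 0.24 in HS3ST2-labelled arrays, and rose by 0.36 ± 0.07 (limma adjusted p 0.00646). IL20RA fell by 0.29 ± 0.07 (limma adjusted p 0.0237) over 3 probe sets of opposite sign, -0.55 and -0.68 in those ending in _s_at and 0.37 in the other. Without the _s_at probe sets it was therefore at 0.37 and not called (limma adjusted p 0.113), and its call was also lost without HS3ST2-labelled replicate 1 or 2 or control replicate 3. IL20RB gave 0.37 ± 0.13 (limma adjusted p 0.085), and passed without control replicate 1 (0.49, limma adjusted p 0.0367). Of 9 further receptor chains measured, IL22RA1 and IL20RA were the only genes called.

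Among the kinases and adaptors that carry the signal, JAK2 and JAK1 went apart. JAK2 rose by 0.63 ± 0.07 (limma adjusted p 5.43e-04), from -0.28, -0.42 and -0.24 in control arrays to 0.24, 0.31 and 0.41, with 2 of 3 probe sets called. JAK1 was at 0.15, 0.26 and 0.09 in control arrays and -0.13, -0.14 and -0.11 in HS3ST2-labelled arrays, and fell by 0.29 ± 0.06 (limma adjusted p 0.00842), with 3 of 5 probe sets called. GRB2 and SOS1, which link receptors to RAS, fell by 0.30 ± 0.06 and 0.19 ± 0.06. SOS1 lost its call whichever array was left out. GRB2 lost its call once _x_at and _s_at types were dropped (-0.22, limma adjusted p 0.0527). SOS1 has no probe set of these types and stayed at -0.19, but its limma adjusted p over that smaller table was 0.0657. STAT3 was not called (-0.04 ± 0.06, limma adjusted p 0.659), with 4 probe sets from -0.27 to 0.17, nor was TYK2 (-0.12 ± 0.05, limma adjusted p 0.12). In all 1 of 11 rose and 3 fell, with a median of -0.12.

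Of 15 inhibitors of the pathway, 2 rose and 4 fell, with a median of 0.00. SOCS3 was not called (0.04 ± 0.06, limma adjusted p 0.689), and its 4 probe sets ranged from -0.14 to 0.21. SOCS5 rose by 0.45 ± 0.06 with all 3 probe sets called, and PIAS1, an inhibitor of STAT binding to DNA, rose by 0.25 ± 0.06. PTPN2, a phosphatase of JAK and STAT proteins, fell by 0.32 ± 0.05 and PIAS3, an inhibitor of STAT3, by 0.24 ± 0.06. PIAS1 lost its call without HS3ST2-labelled replicate 3 (0.23), and PIAS3 without HS3ST2-labelled replicate 1 or 3 or control replicate 1 (-0.20 to -0.23). The count of falls was 1 or 2 when any 1 array was left out. That of rises was 5 where each gene was read from its most variable probe set.

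Known STAT3 target genes moved in both directions. Of 19 measured, 5 rose and 4 fell, with a median of 0.04. BIRC5, an inhibitor of apoptosis that also acts in mitosis, fell by 0.97 ± 0.06, the adhesion molecule ICAM1 by 0.70 ± 0.06 and MYC by 0.66 ± 0.05. CEBPD, a transcription factor of the acute phase response, rose by 0.65 ± 0.06, from -0.26, -0.37 and -0.42 in control arrays to 0.31, 0.28 and 0.30. With _x_at and _s_at types dropped, 15 remained, of which 3 rose and 2 fell. Several of these genes answer to other pathways as well.

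Of 16 measured acute phase genes, which IL6 induces in liver, 5 were called higher and 1 lower, with a median of 0.07. Over all genes tested, 11.5% were called higher and 13% lower. FGG, the fibrinogen gamma chain, rose by 2.66 ± 0.11, from -1.26, -1.64 and -1.22 in control arrays to 1.32, 1.22 and 1.31. The fibrinogen gene FGB rose by 0.71 ± 0.08 and the copper carrier CP by 0.41 ± 0.10, while ORM1 fell by 0.52 ± 0.11. FGA, the other fibrinogen gene, was not called (-0.13 ± 0.09, limma adjusted p 0.361). The count of rises was 2 without HS3ST2-labelled replicate 3 and 3 without HS3ST2-labelled replicate 2 or control replicate 1 or 2. CP lost its call without HS3ST2-labelled replicate 3 (0.38).

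Of 5 genes that release receptors or process cytokines, RHBDF2, a partner of the sheddase ADAM17, fell by 0.56 ± 0.05. The sheddase ADAM10 rose by 0.26 ± 0.06 and the convertase FURIN by 0.32 ± 0.08, a call lost without HS3ST2-labelled replicate 2 or 3 or control replicate 1 or 2. ADAM17, which cleaves IL6R from the cell surface, was not called (0.04 ± 0.05, limma adjusted p 0.68).

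Transcription factors known to act at cytokine promoters were called in 7 of 20 cases, 3 higher and 4 lower, with a median of -0.08. Of all genes tested, 24.5% were called. Besides CEBPD, IRF1 rose by 0.31 ± 0.05. FOSL2, an AP-1 subunit, fell by 0.42 ± 0.06 and the NF-kB subunit REL by 0.35 ± 0.06, while RELA was not called (-0.04 ± 0.06, limma adjusted p 0.711). The count of falls was 2 without HS3ST2-labelled replicate 1 or control replicate 2 or 3. Of 9 genes that control the decay of cytokine transcripts, 2 rose and 3 fell, with a median of -0.12. ELAVL1, which stabilises such transcripts, fell by 0.42 ± 0.05 with all 4 probe sets called, and ZFP36, which destabilises them, by 0.34 ± 0.05. ZFP36L1 gave 0.37 ± 0.08 and ZFP36L2 -0.26 ± 0.08, and both calls were lost once _x_at and _s_at types were dropped, that of ZFP36L2 also without any 1 array other than HS3ST2-labelled replicate 2. With any 1 array left out, 1 of the 9 genes rose.

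**Figure D3:**
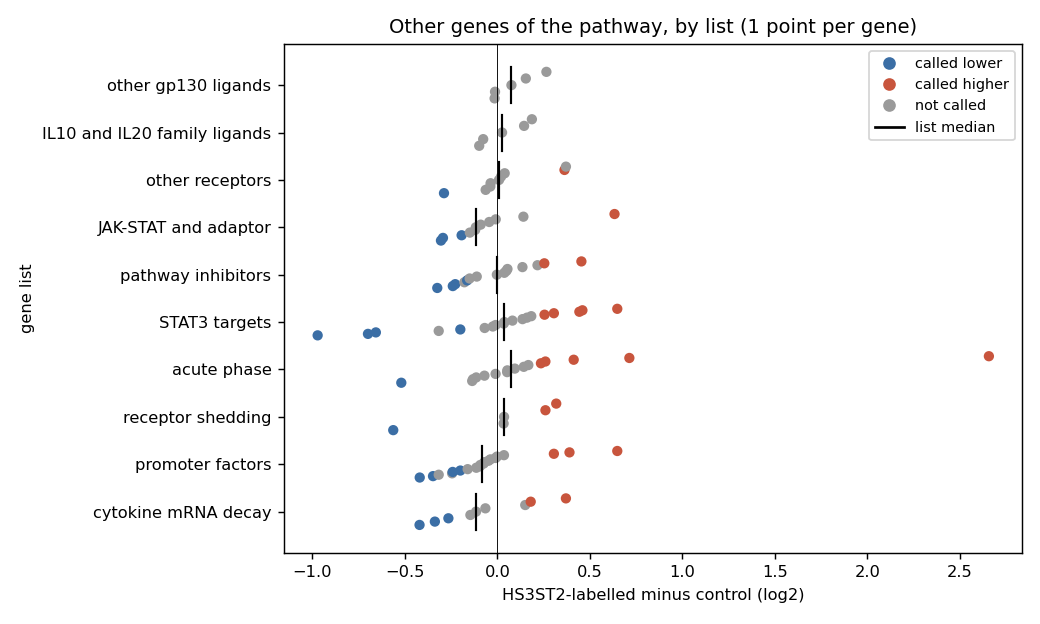
Difference between HS3ST2-labelled and control arrays (log2) for other genes of the pathway in 10 lists, 1 point per gene, coloured by call, with a black line at each list's median. All list medians lie between -0.12 and 0.08, and FGG stands alone at 2.66.

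Over the 10 lists, 19 of 108 measured genes rose and 20 fell, with a median of -0.01, where 11.5% and 13% of all genes tested were called. Of these, 12 fell without HS3ST2-labelled replicate 1 and 13 without control replicate 3, while 12 rose without HS3ST2-labelled replicate 3. Calls over all 19775 genes tested also became fewer with 1 array left out. They were then 2025 to 2162 lower and 1729 to 1899 higher, against 2571 and 2274 with every array.

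Neighbouring genes on the chromosomes were read from the RefSeq order, 3 measured genes to each side of a member. Of 48 neighbours that are no members, 5 fell (10.4%) and 3 rose (6.25%), so 83.3% were not called. Of all genes tested, 13% were called lower and 11.5% higher. IL24 lies on chromosome 1 beside its relatives IL20 (-0.10 ± 0.07), IL19 (0.19 ± 0.14) and IL10 (0.03 ± 0.09), and none of its 6 neighbours was called. LIFR and OSMR lie next to each other on chromosome 5 and both rose, while RICTOR, the next measured gene, was at -0.18 ± 0.05 and the following FYB1 at 0.19 ± 0.06. The probe sets of RICTOR disagreed, with 3 called lower and the other at 0.36, and the calls of RICTOR and FYB1 were lost when any 1 array was left out, except that of FYB1 without HS3ST2-labelled replicate 2. Near IL11 on chromosome 19, UBE2S, a ubiquitin-conjugating enzyme of mitosis, fell by 0.93 ± 0.09, and the 5 other neighbours were not called. Beside IL6 on chromosome 7, HYCC1 fell by 0.29 ± 0.06, KLHL7 was at -0.18 ± 0.05 with its call lost when any 1 array was left out, and IL6-AS1 was not called (0.07 ± 0.09). Beside LIF on chromosome 22, ASCC2 rose by 0.49 ± 0.06 and MTMR3 by 0.25 ± 0.06, the latter lost without HS3ST2-labelled replicate 1 or 2 or control replicate 2. Near IL11RA on chromosome 9, DCTN3 fell by 0.35 ± 0.06, and no neighbour of IL6ST or IL6R was called.

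**Figure D4:**
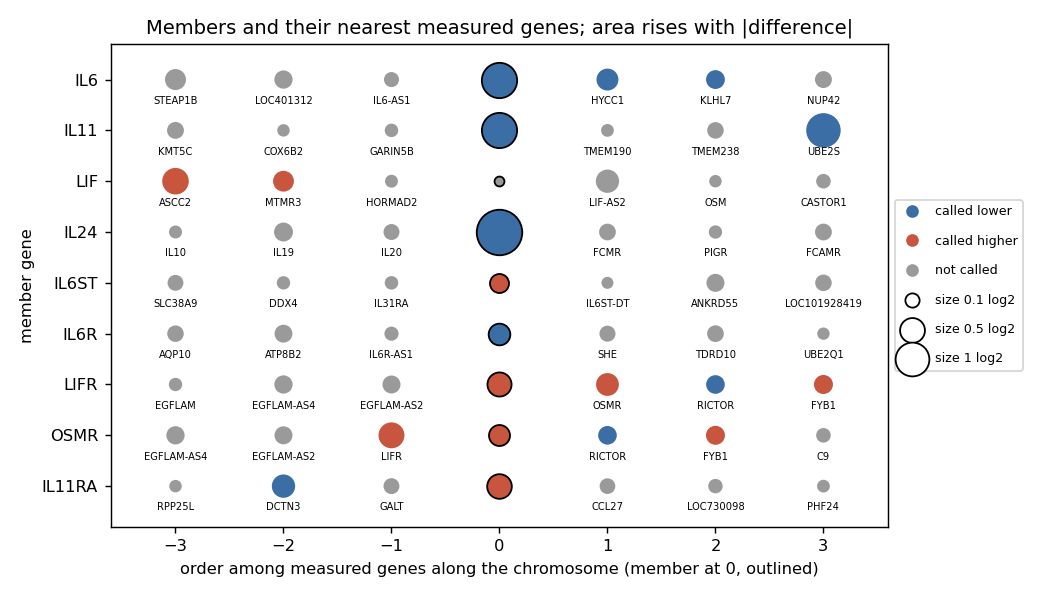
Differences of the 9 member genes (outlined, at 0) and of the 3 nearest measured genes on each side in RefSeq order; colour gives the call and point area rises with the size of the difference in log2. The large IL24 point stands among 6 grey neighbours, and LIFR and OSMR, which are each other's neighbours, are both red.

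Across the 6 arrays the genes whose pattern was most like that of IL24 were PANX1 (Pearson r 0.999), a membrane channel, MLF2 (0.999) and CEMIP (0.999), a hyaluronan-binding protein. For IL6 they were NDC1 (1.00), a nuclear pore protein, G2E3 (0.999) and MALT1 (0.999), a protease of NF-kB signalling. These values are a description over 6 points in 2 groups, and 188 genes reached 0.99 with IL24 and 302 with IL6. The likeness is one of shape and not of size, since PANX1 fell by 0.24 ± 0.05 where IL24 fell by 1.89.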

How the data were processed

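The data were the deposited value table of 6 arrays, 3 per group, with 54675 probe sets. Per the submitters' processing notes the authors used RMA, which corrects background, equalises the arrays and summarises probes. The deposited values, read as log2, are further centred, since the median over the 6 arrays is 0 within 1e-05 for all 54675 probe sets. The sources used here do not name that step or the log base, and base 2 was taken. Arrays give no counts, and their number limits the precision.

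After 62 Affymetrix control probe sets were set aside, 54613 were tested. GEO's platform annotation gave 1 symbol for 41091, several for 1801 and none for 11721, and 41037 were matched to a current RefSeq gene. Probe sets with 1 symbol were averaged to 19775 genes. limma 3.58.1 (lmFit, eBayes, R 4.3.3, no covariate) was fitted over all probe sets and over all genes, with Benjamini-Hochberg adjustment over each whole table and a call at an adjusted p under 0.05. The fits were checked on simulated arrays with planted differences. Those arrays had independent noise and were not centred, so the check cannot vouch for the calls in these data. No filter on level was possible.

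The members and lists were chosen with earlier results of these data known. The genes named are the 9 measured members, up to 4 called genes per list with the smallest p, called neighbours, and the 3 genes most correlated with IL24 and with IL6. STAT3, SOCS3, TYK2, RELA, ADAM17, EBI3, IL10, IL19, IL20, IL20RB, IL26, FGA, CAV1, AXL, SPARC and IL6-AS1 were named outside this rule. Arrays with the same replicate number were not treated as pairs in the main fit. The correlation of same-numbered deviations from the group means over genes was 0.12, 0.05 and -0.08. That of unlike-numbered deviations ran from -0.17 to 0.14. With 3 arrays per group these values cannot show whether the arrays were paired.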

Additional observations from a re-analysis of the deposited data

Results flagged for a closer look

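The ribosomal RNA control probe sets, which enter no comparison between genes, were higher in every HS3ST2-labelled array than in any control array. The median of 6 such probe sets differed by 0.49 log2, from -0.18 ± 0.12 (SD, n = 3) in control arrays to 0.31 ± 0.38 in HS3ST2-labelled arrays. Its part in the members' differences was not tested, and without HS3ST2-labelled replicate 3, where it was highest, IL24 was at -1.79, IL6 at -1.12, IL11 at -1.10, IL6R at -0.33, LIFR at 0.46, OSMR at 0.31 and IL11RA at 0.49, all called by limma. IL6ST lost its call without that array (0.24, limma adjusted p 0.115).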

How the results depend on the processing

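IL24, IL6, IL11, IL6R, LIFR, OSMR and IL11RA kept their direction and call under every alternative run. Over left-out arrays 4 member genes were lower and 3 to 4 higher, and member probe sets were 5 lower and 6 to 11 higher, with 6 without control replicate 2 and 7 without control replicate 3 or HS3ST2-labelled replicate 1. Pathway genes were 12 to 18 lower and 12 to 18 higher. Calls fell over the whole table too. Of all 19775 genes, 2025 to 2162 were then lower and 1729 to 1899 higher, against 2571 and 2274 with all 6 arrays. Of all 54613 probe sets, 3285 to 3775 were lower and 3014 to 3405 higher, against 4905 and 4315. With the replicate number as a block, IL24 was at -1.89 (limma adjusted p 2.35e-04) and no member gene changed its call, though the probe sets 1554008_at of OSMR (0.27) and 1552646_at of IL11RA (0.32) lost theirs.

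At an adjusted p under 0.01, 2435 probe sets were lower and 2208 higher, 1555 genes lower and 1285 higher, 6 member probe sets higher, and 11 pathway genes lower and 9 higher. With _x_at and _s_at types dropped, fewer genes were tested, and 1661 of 17098 genes and 10 of 90 pathway genes were lower and 11 pathway genes higher. IL20RA was then at 0.37 and STAT3 at 0.031. Read from its most variable probe set, RICTOR was at 0.36 and STAT3 at 0.0041. Values that lay near 0 changed sign. LIF was at -0.0035 with array weights (its probe set at -0.0038), at -0.00033 with quantile normalization and from -0.0081 to 0.014 over left-out arrays. Over left-out arrays, 204864_s_at of IL6ST ran from -0.0074 to 0.18, 217489_s_at of IL6R from -0.071 to 0.067, IL10 from -0.073 to 0.079, RELA from -0.071 to 0.0089 and SOCS3 from -0.0029 to 0.067. The causes were not tested. Background correction and filters on level need values that the centred table does not hold.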
